A study of Sus scrofa with 20 samples.

Results

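The genes of glycerolipid and phospholipid metabolism in pig backfat were described over 20 RNA libraries. They were the loci of the raw count table whose Ensembl identifier led to a single pig symbol of the AGPAT, LPIN, DGAT, MOGAT, LPCAT, MBOAT, PLIN, PLA2, PLD, PLPP, GPD, PCYT, CHPT, CEPT, CHKA, CHKB, PTDSS, PISD, LPGAT or CDS families. This gave 48 loci of 44 symbols among 23483 loci, of which 9139 had a single symbol. A locus here is a transcription unit assembled by Cufflinks, and PLPP3, PLPP6, PLD1 and PLPPR5 had 2 loci each.

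Backfat is the subcutaneous fat along a pig's back. It was taken at slaughter from 10 female and 10 castrated male Italian Large White pigs, one library per animal, with no further treatment stated. All 20 animals shared housing and feed, weighed 150 to 160 kg and were 233 to 250 days old. Intact males were not part of the comparison, so sex and castration cannot be told apart. Whole tissue was used, so fewer cells of a type and less RNA per cell cannot be told apart either. Libraries are numbered within each sex in the order of the deposited samples, and a shared number pairs no animals.

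Fat cells build triglyceride by adding acyl chains to glycerol 3-phosphate. GPD enzymes supply that backbone, AGPAT enzymes make phosphatidate, lipins remove its phosphate to leave diacylglycerol, and DGAT enzymes add the last acyl chain. Diacylglycerol and phosphatidate are also the branch points to membrane phospholipids, through the choline pathway and the CDP-diacylglycerol synthases. Phospholipases and lysophospholipid acyltransferases then remodel the acyl chains, and perilipins coat the finished lipid droplet.

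Total counts ran from 25754778 to 51248122 per library, and the share of mitochondrial loci lay between 8.49% (castrated male 1) and 26.3% (the library labelled castrated male 10). The libraries labelled female 10 and castrated male 10 went against their labels at both loci that separated the sexes. XLOC_042132 stood at 547 to 1233 CPM (counts per 1000000, scaled by TMM) in the other 9 females and at 0 to 1.87 CPM in the other 9 castrated males. The value was 0.409 CPM for the library labelled female 10, against 989 CPM for the one labelled castrated male 10. The sex differences of named members are therefore given with and without both libraries. Fat cell markers, of which 6 of 12 listed had a locus, summed to 2631 to 5859 CPM in females and 1834 to 5034 CPM in castrated males. Castrated male 1 had the lowest sum of fat cell markers and of fibroblast markers (6772 CPM) and the highest sum of macrophage markers (1059 CPM). Endothelial markers, 3 of 6 found, also had their highest sum in that library, at 2291 CPM.

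Not every gene of these families could be read. Of the 78 pig symbols that the families hold in the name table, 34 had no locus of their own. Among them were DGAT2, the other enzyme of the last step of triglyceride synthesis, AGPAT2, LPIN2, PLIN2, PLIN3, PCYT2 and CHKB, which are not analysed here. PLIN1, the main droplet coat of fat cells, was counted within a locus shared with PEX11A, which averaged 433 ± 109 FPKM (SD, n = 20). LPCAT3 was counted within a locus shared with PHB2 at 85.2 ± 8.04 FPKM. Their own levels cannot be read from these loci.

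Levels between genes were compared by the FPKM that the authors deposited, which divide fragments by transcript length and library size. The median locus among the 48 averaged 9.02 FPKM, against 1.98 FPKM over all 23483 loci. At least 10 FPKM was reached by 23 of the 48 (47.9%, against 26.4% of all loci), and at least 100 FPKM by 5 (10.4% against 3.37%). At the other end, 5 loci averaged under 1 FPKM. The most abundant 4 each belong to a different step of the pathway.

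GPD1, the cytosolic enzyme that makes glycerol 3-phosphate from a glycolytic intermediate, had the highest mean at 328 ± 72.4 FPKM (SD, n = 20; XLOC_025291). It ran from 153 FPKM in castrated male 1 to 454 FPKM in castrated male 4. AGPAT1, which acylates lysophosphatidate to phosphatidate in the endoplasmic reticulum, followed at 318 ± 83.0 FPKM (XLOC_030580), with the same library lowest at 144 FPKM. Their means differed by far less than the SD of either between libraries, and the order of this pair was not tested.

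PLIN4, a perilipin that coats nascent droplets in fat cells, averaged 250.5 ± 92.2 FPKM, from 86.7 FPKM in castrated male 9 to 422 FPKM in castrated male 3. CHPT1, the cholinephosphotransferase that joins diacylglycerol and CDP-choline into phosphatidylcholine, averaged 229 ± 67.4 FPKM, again with castrated male 1 lowest, at 84.8 FPKM. The gap between PLIN4 and CHPT1 also lay within their SDs between libraries, and their order was not tested.

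Below these 4 the levels fell away. PLPP3, a membrane phosphatase of lysophosphatidate and other lipid phosphates, averaged 111 ± 23.1 FPKM at its main locus. LPIN1, the lipin of fat cells, averaged 96.2 ± 23.5 FPKM, and PLD3, an exonuclease of lysosomes that keeps its name from sequence likeness to phospholipase D, 89.1 ± 12.9 FPKM. PLPP1, a further lipid phosphate phosphatase, averaged 80.2 ± 26.6 FPKM. These neighbours overlapped between libraries, and the next pair lay well below them.

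CDS2, which turns phosphatidate into CDP-diacylglycerol, averaged 40.7 ± 8.03 FPKM, and DGAT1, which adds the last acyl chain of triglyceride, 39.5 FPKM with an SD close to that of CDS2. Rescaling FPKM to the same sum in every library raised these 10 means, GPD1 to 424 FPKM and DGAT1 to 51.0 FPKM, and kept their order.

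**Figure D1:**
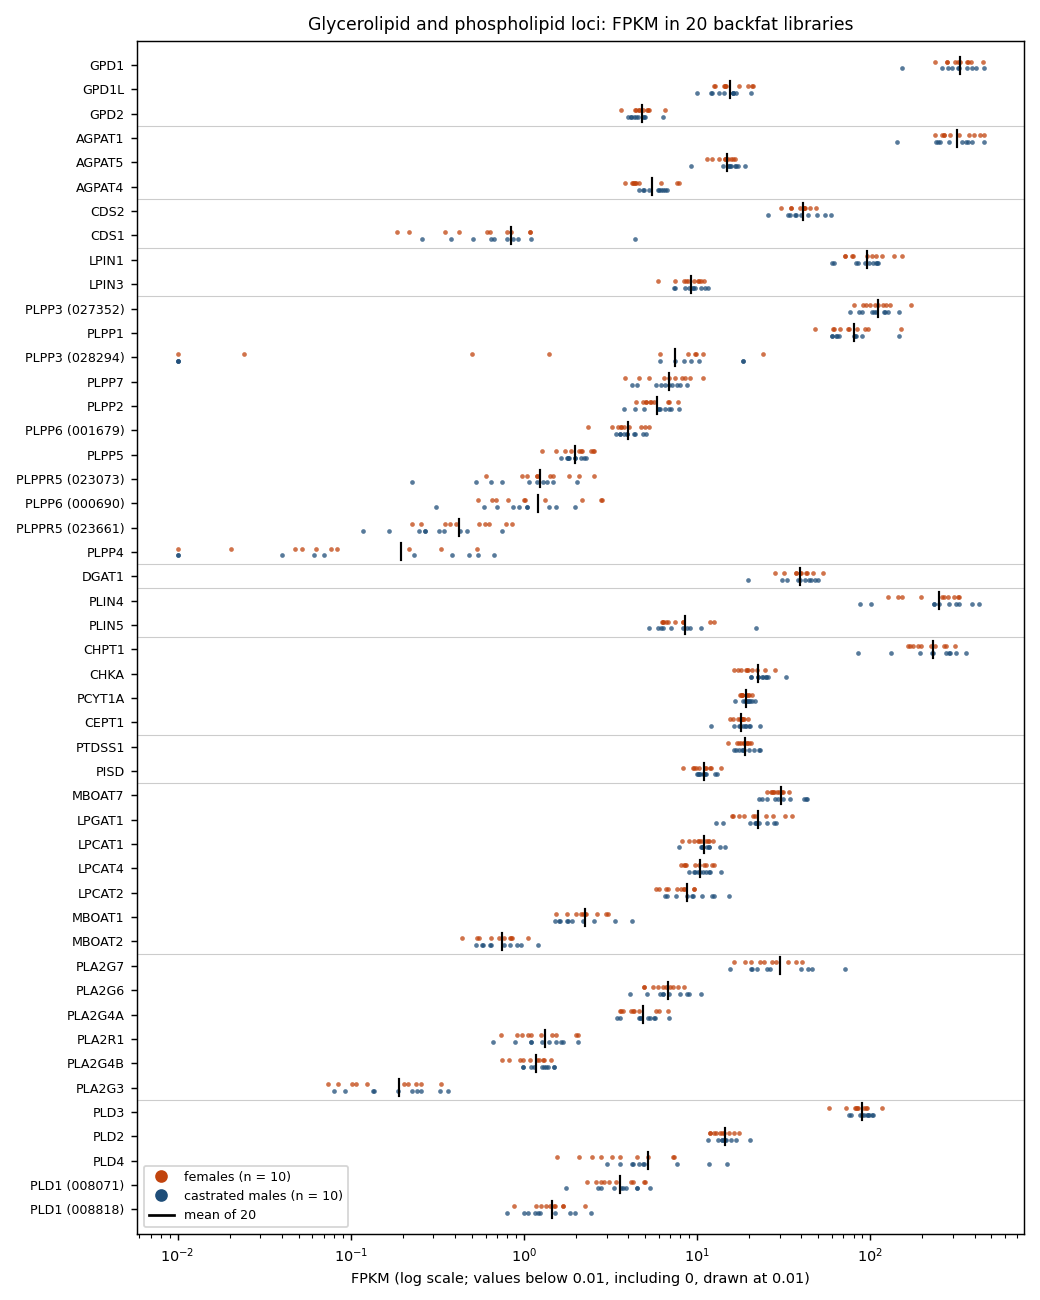
FPKM (horizontal log axis) of the 48 loci, grouped by role, in 10 females (orange) and 10 castrated males (blue); each point is a library and the black bar is the mean of 20. GPD1, AGPAT1, PLIN4 and CHPT1 have the highest means, females and castrated males overlap at every locus, and the CDS1 point far to the right is castrated male 1.

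Within roles, 1 locus usually carried most of the signal. In glycerol 3-phosphate supply, GPD1L, a relative of GPD1, averaged 15.5 ± 3.14 FPKM, and GPD2, the mitochondrial enzyme that oxidises glycerol 3-phosphate, 4.77 ± 0.717 FPKM. Among the lysophosphatidate acyltransferases AGPAT5, found at mitochondria, averaged 14.9 ± 2.16 FPKM and AGPAT4 5.46 ± 1.19 FPKM. LPIN3 averaged 9.24 ± 1.45 FPKM beside LPIN1, and CDS1 0.837 ± 0.876 FPKM beside CDS2. PLIN5, which ties droplets to mitochondria in oxidative tissues, averaged 8.50 ± 3.73 FPKM beside PLIN4. Its locus carries 2 Ensembl identifiers that led to this single symbol, so its values may not be those of PLIN5 alone.

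The choline branch was led by CHPT1. CHKA, the choline kinase of its first step, averaged 22.4 ± 3.94 FPKM. PCYT1A, the rate-limiting enzyme that forms CDP-choline, averaged 19.2 ± 1.23 FPKM, and CEPT1, which handles both choline and ethanolamine, 18.04 ± 2.18 FPKM. PTDSS1, a phosphatidylserine synthase, averaged 18.9 ± 2.03 FPKM, and PISD, the mitochondrial enzyme that decarboxylates phosphatidylserine to phosphatidylethanolamine, 10.9 ± 1.31 FPKM.

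Among the remodelling acyltransferases MBOAT7, which puts arachidonate on phosphatidylinositol, was highest at 30.6 ± 5.92 FPKM, followed by LPGAT1 at 22.4 ± 5.87 FPKM. PLA2G7, the lipoprotein-associated phospholipase A2 that macrophages secrete, led its group at 30.0 ± 13.4 FPKM, while PLA2G6 and PLA2G4A, both intracellular, averaged 6.80 ± 1.60 and 4.84 ± 1.05 FPKM. The lowest mean of all, 0.189 ± 0.0904 FPKM, was that of PLA2G3, a secreted phospholipase A2.

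Counts and FPKM did not always describe the same loci. The second PLPP3 locus (XLOC_028294) held 0 counts in all 20 libraries but a deposited mean of 7.47 FPKM, from 0 to 24.0 FPKM. The second PLPP6 locus (XLOC_000690) held at most 1 count in a library beside 1.21 ± 0.711 FPKM. Both of these and PLPP4, with 0 to 29 counts, did not pass the filter on low counts, which left 45 loci for the tests below. If both measures rested on the same fragments and the same library scaling, CPM divided by FPKM would be the transcript length in kilobases. That ratio had a median of 2.78 over the 48 loci and 2.63 over all loci tested, but averaged 0.672 for PLPP1, 0.382 for PLD1 at XLOC_008071 and 9.80 for CDS2.

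The ratio also moved with the library. The library scaling of TMM-scaled CPM and of FPKM may differ, which would shift every ratio of a library, and its part was not tested. Of the 45 loci, 22 (48.9%) had their lowest ratio and 16 (35.6%) their highest in the library labelled castrated male 10, against 22.9% and 28.4% of 21168 loci with both values above 0 in every library. DGAT1 stood at 1.07 CPM per FPKM there and at 1.46 to 2.30 in the other 19 libraries, and AGPAT1 at 1.14 against 1.60 to 2.27. In the other direction AGPAT5 stood at 6.32 against 3.24 to 5.09. The 22 loci had a median ratio over libraries of 2.54 and the 16 a median of 4.04. Other libraries stood out too. Female 7 had the lowest ratio at 9 of the 45 loci (20.0%, against 26.2% of the 21168). The library labelled female 10 had the highest at 5 (11.1%, against 13.9%). The order of libraries at a gene can thus depend on the unit, and DGAT1 in the library labelled castrated male 10 was 44.9 CPM, next to lowest, but 41.8 FPKM, above the mean.

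Variation between animals within a sex was measured as the SD of log2 CPM around the mean of each sex, the residual SD. It had a median of 0.35 over the 44 tested loci of mean CPM of at least 1, equal at this precision to the 0.35 over all 15770 such loci. CDS1 varied most, with a residual SD of 0.95, or 0.72 without castrated male 1. It ran from 0.686 CPM with a median of 2.19 CPM to 4.11 CPM in females, and from 1.04 CPM with a median of 2.53 CPM to 17.7 CPM in castrated males. Castrated male 1 stood far above the next library, castrated male 6 at 4.21 CPM, and the 25.9-fold range over the 20 libraries includes it.

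PLD4, a relative of PLD3 found in dendritic cells and other immune cells, had a residual SD of 0.79. It ran from 3.10 CPM (median 7.08 CPM) to 15.2 CPM in females and from 6.18 CPM (median 9.19 CPM) to 30.7 CPM in castrated males. Castrated male 1 was highest, followed by castrated male 6 at 24.4 CPM, and the groups overlapped. PLA2G7 had a residual SD of 0.51 and was also highest in castrated male 1, at 167 CPM, as was PLPP1, with 0.49, at 118 CPM. Macrophage markers, 7 of 12 found and none under 0.1 CPM, summed to 89.0 to 404 CPM in females and 175 to 1059 CPM in castrated males, with castrated male 1 highest. T and NK cell markers, 7 of 9 found, were highest in the same library at 110 CPM, and so were endothelial markers, at 2291 CPM. The part of these cell types in these values was not tested.

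PLIN4 was the most variable of the abundant loci, with a residual SD of 0.65. It ran from 1001 CPM (median 1928 CPM) to 2397 CPM in females and from 638 CPM (median 1943 CPM) to 2989 CPM in castrated males. Castrated male 9 and the library labelled castrated male 10 lay lowest, at 663 and 638 CPM, and castrated male 3 highest. The PLIN5 locus, which carries 2 Ensembl identifiers, had a residual SD of 0.45. It was likewise highest in castrated male 3, at 35.3 CPM, while no other library exceeded 21.4 CPM.

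Both PLPPR5 loci, of a phosphatase-related membrane protein studied mainly in neurons, had residual SDs of 0.69 and 0.67 at means of 3.00 and 3.57 CPM. CHPT1 had 0.48, which fell to 0.34 without castrated male 1, PLA2R1, the receptor of secreted phospholipases A2, 0.42, and PLD1 at XLOC_008071, whose product makes phosphatidate from phosphatidylcholine, 0.42. At the other end stood enzymes of the membrane phospholipid branches, PCYT1A at 0.12, CEPT1 at 0.14 and PTDSS1 at 0.15, with AGPAT5 at 0.14. PCYT1A stayed between 97.4 and 135 CPM over the 20 libraries, a 1.39-fold range.

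**Figure D2:**
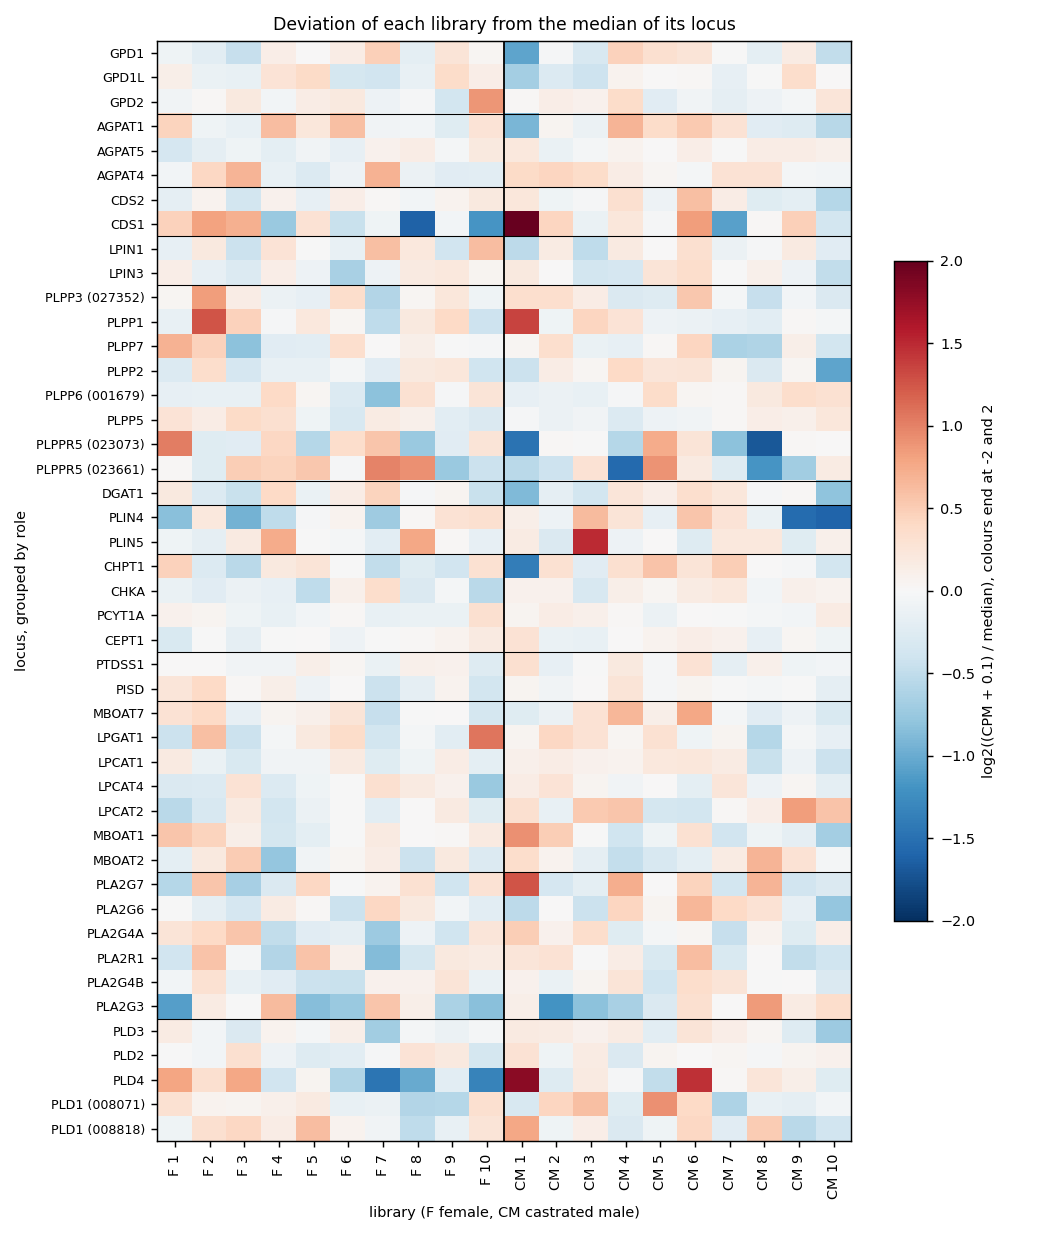
Each row is 1 of the 45 tested loci, grouped by role, and each column a library; colour is log2 of CPM plus 0.1 against the median of the locus. Castrated male 1 stands low at GPD1, AGPAT1, DGAT1 and CHPT1 and high at CDS1, PLPP1, PLA2G7 and PLD4, and PLIN4 is lowest in castrated male 9 and the library labelled castrated male 10.

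The extreme library of a locus was often the same one. Castrated male 1 held the lowest value of 6 and the highest of 9 of the 45 loci (13.3% and 20.0%, against 10.52% and 11.1% of all loci tested). Female 7 held the lowest of 9 (20.0% against 11.8%). Castrated male 6 held the highest of 8 (17.8% against 4.68%), among them CDS2 at 601 CPM, MBOAT7 at 125 CPM, LPIN3 at 45.6 CPM and PLA2G6 at 34.8 CPM.

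Females were compared with castrated males to ask whether these genes depend on sex or castration. No member passed an adjusted p of 0.05 in the edgeR quasi-likelihood test over 21587 loci, in which 0 loci passed (0%). By DESeq2, limma-voom and limma on FPKM 0 of the 45 passed as well. An unadjusted p under 0.05 was reached by 1 of 45 members, below the 4.33% of all loci. Values below 0, meaning lower in females, were found for 30 members and above 0 for 15, with a median log2 difference of -0.05, against 50.9% above 0 and a median of 0.00 over all loci. With upper-quartile factors, which moved the median of all loci to 0.02, 28 lay below 0 and the members' median was -0.03.

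That member was LPCAT2, an acyltransferase that makes phosphatidylcholine and platelet-activating factor in inflammatory cells. It stood at 22.7 CPM (median 29.5 CPM) to 37.4 CPM in females and at 25.4 CPM (median 38.7 CPM) to 58.6 CPM in castrated males. The groups overlapped, and the 5 highest libraries in CPM were castrated males 9, 4, 3 and 1 and the library labelled castrated male 10. In FPKM the latter stood at 9.44, below female 9 at 9.59 and female 3 at 9.55. The log2 difference was -0.39 ± 0.14 (SE; p = 0.013, adjusted p near 1 in edgeR), and -0.33 without the libraries numbered 10.

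CHKA had a log2 difference of -0.19 ± 0.10, AGPAT5 -0.12 ± 0.07 and PLD4 -0.60 ± 0.34. Without the libraries numbered 10 they stood at -0.14, -0.14 and -0.57. CDS1 stood at -0.82 ± 0.43, which became -0.13 without castrated male 1 and -0.81 without the libraries numbered 10. On the other side PLPPR5 had 0.46 ± 0.28 and 0.35 ± 0.29 at its 2 loci, LPIN1 0.15 ± 0.14, GPD1L 0.12 ± 0.12 and PLPP7 0.15 ± 0.17. Without the libraries numbered 10 these were 0.57, 0.37, 0.07, 0.12 and 0.13. None of these passed the test, and a missed threshold does not show equal levels.

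With all 20 libraries, the 4 most abundant genes and DGAT1 differed by less than 1 SE between the sexes. GPD1 had a log2 difference of 0.06 ± 0.15, AGPAT1 0.13 ± 0.17, DGAT1 0.10 ± 0.15, PLIN4 -0.13 ± 0.25 and CHPT1 -0.11 ± 0.19. Without the libraries numbered 10 the same differences were 0.03, 0.08, 0.09, -0.29 and -0.19. The sign of GPD1 was not stable, at -0.01 without castrated male 1 and -0.03 with age as a covariate. In CPM, GPD1 ran from 315 (median 438) to 600 in females and from 208 (median 430) to 597 in castrated males, so the groups overlapped almost wholly. All 6 loci of the phospholipase A2 group and all 4 of the choline branch lay below 0, though 1 of the 6 moved above 0 with upper-quartile factors and 2 without castrated male 1. The 3 glycerol 3-phosphate loci lay above 0, of which GPD1 fell below it without castrated male 1. Over all loci 50.9% lay above 0. Of the other roles, the 2 CDP-diacylglycerol synthases, 2 droplet coats and 2 phosphatidylserine loci lay below 0. So did 5 of 7 lysophospholipid acyltransferases, 4 of 5 phospholipases D and 2 of 3 lysophosphatidate acyltransferases. The phosphatidate phosphatases split 1 and 1, and 6 of 8 lipid phosphate phosphatases lay above 0, as did DGAT1. No role was tested as a group.

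Without the libraries labelled female 10 and castrated male 10, 18 of 21583 loci passed (0.0834%) and 0 were members. The counts of members above and below 0 stayed at 15 and 30. Of 51 tested loci of other genes in these pathways, from a list of 67 symbols of which 46 were found, 26 lay above 0 and 25 below and 0 passed. Their smallest p values belonged to a minor LIPE locus (XLOC_027722, 0.90 ± 0.36), PLCD3, a phospholipase C, at 0.29 ± 0.13, and PLCB2, a phospholipase C of blood cells, at -0.51 ± 0.23.

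Age was examined as a slope per 10 days with sex in the model. All animals weighed 150 to 160 kg, so age and the speed of growth to that weight cannot be told apart. No locus passed an adjusted p of 0.05 in edgeR (0%), and an unadjusted p under 0.05 was reached by 5 of 45 members (11.1%, against 5.51% of all loci). Slopes were above 0 for 22 members and below 0 for 23, with a median of 0.00, equal to that of all loci at this precision. With upper-quartile factors the split was 24 and 21 and the median 0.02, as for all loci. In the main fit all 5 members with an unadjusted p under 0.05 lay below 0, meaning lower in older animals. Over all loci 805 of the 1189 with such a p also lay below 0. With upper-quartile factors 4 members had such a p, all below 0, beside 706 of 1161 over all loci.

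PLPP1 had the smallest p, with a slope of -0.57 ± 0.19 (SE; p = 0.00584, adjusted p = 0.859 in edgeR). It ran from 32.4 CPM (median 49.9 CPM) to 111 CPM in females and from 39.9 CPM (median 44.0 CPM) to 118 CPM in castrated males. Its highest libraries were female 2, slaughtered at 235 days, and castrated male 1, at 237 days, and female 7, at 249 days, was lowest. The slope was -0.43 without castrated male 1. PLPP3, of the same family, had a slope of -0.31 ± 0.14 and was likewise highest in female 2, at 203 CPM, and lowest in female 7, at 76.3 CPM.

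CDS1 had a slope of -1.11 ± 0.40 (p = 0.0109), which was -0.70 without castrated male 1. PLD4 had -0.81 ± 0.34 and -0.61, and PLA2R1 -0.36 ± 0.17 and -0.34. Without castrated male 1 an unadjusted p under 0.05 was left for 2 of the 45 (4.44%, against 4.71% of all loci), PLPP1 and CDS1. Without the libraries numbered 10 it was reached by 4 (8.89%, against 5.24%), with PLPP1, CDS1 and PLA2R1 below 0 and DGAT1 above it at 0.32. Immune markers were highest in castrated male 1, and their part in the slope of PLD4 was not tested.

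In the other direction PLPPR5 had slopes of 0.48 ± 0.27 and 0.42 ± 0.27, AGPAT1 0.29 ± 0.17, GPD1 0.24 ± 0.15 and DGAT1 0.24 ± 0.16. Among other genes of the pathways, 30 of 51 slopes were above 0 and 21 below, and 0 passed. CIDEC, which fuses lipid droplets in fat cells, had a slope of 0.48 ± 0.23 and ABHD6, a monoacylglycerol lipase, 0.26 ± 0.10. PLCE1, a phospholipase C, had -0.40 ± 0.15, SGMS2, a sphingomyelin synthase, -0.39 ± 0.18 and DGKG, a diacylglycerol kinase, -0.48 ± 0.22.

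Slopes did not differ detectably between the sexes. No locus passed in edgeR (0%), and 0 of 45 members had an unadjusted p under 0.05, against 5.42% of all loci. The smallest p of a member was that of MBOAT7, with a difference of slopes, females minus castrated males, of -0.53 ± 0.30 (p = 0.091, adjusted p = 0.896). PISD had -0.31 ± 0.19, PLD1 at XLOC_008071 -0.54 ± 0.40, PLPPR5 at XLOC_023661 -0.70 ± 0.54 and PLPP1 -0.40 ± 0.39, and the latter was -0.80 without castrated male 1 (unadjusted p = 0.00716). Female 2, the youngest female at 235 days, stood at 111 CPM for PLPP1, with female 3 next among the females at 63.6 CPM. Above 0, MBOAT1 had 0.48 ± 0.35, CHKA 0.24 ± 0.21, PLPP7 0.39 ± 0.36, LPIN1 0.31 ± 0.29 and PCYT1A 0.15 ± 0.14. Of 51 other loci of the pathways 0 passed, and the smallest p values were those of TAMM41, a mitochondrial CDP-diacylglycerol synthase, at -0.48 ± 0.20, and PLCE1 at -0.69 ± 0.29.

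**Figure D3:**
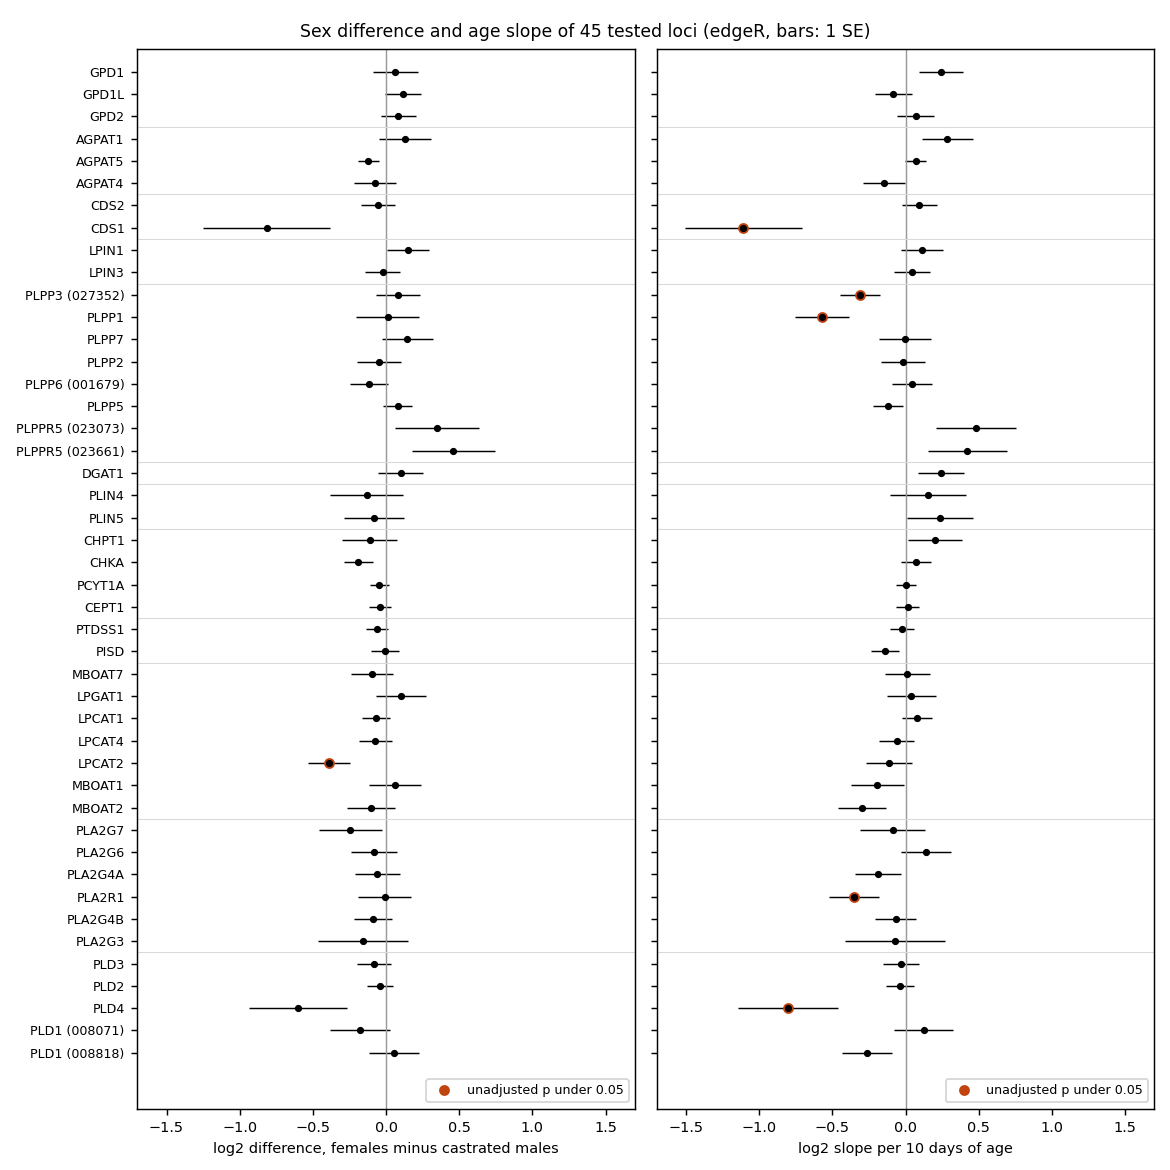
Log2 difference between females and castrated males (left) and log2 slope per 10 days of age (right) of the 45 tested loci, with 1 SE, from edgeR; filled orange circles have an unadjusted p under 0.05. No locus passes the adjusted threshold, 1 has an unadjusted p under 0.05 for sex and 5 for age, all left of 0.

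Which members vary together was asked by correlating every tested locus with LPIN1 over the 20 libraries, with sex means removed. DGAT2 and AGPAT2, the first choices of reference gene, had no locus of their own. No locus passed an adjusted p of 0.05 (0% of 21586, two-sided permutation within sex). An unadjusted p under 0.05 was reached by 7 of 44 members (15.9%, against 13.9% of all loci). LPIN1 ran from 293 CPM (median 425 CPM) to 609.6 CPM in females and from 276 CPM (median 394 CPM) to 494 CPM in castrated males, with the library labelled female 10 and female 7 farthest from its median.

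Highest were GPD1 (r = 0.60, rho = 0.58), PLA2G6, a calcium-independent phospholipase A2 (r = 0.58, rho = 0.56), DGAT1 (r = 0.45, rho = 0.50), CHPT1 (r = 0.44, rho = 0.34), AGPAT1 (r = 0.40, rho = 0.43) and CDS2 (r = 0.34, rho = 0.31). Their unadjusted permutation p values ran from 0.00354 for GPD1 to 0.125 for CDS2, and the adjusted ones from 0.191 to 0.482. Lowest were PLD2, the relative of PLD1 (r = -0.58, rho = -0.57), PLPP1 (r = -0.53, rho = -0.54), PLD4 (r = -0.52, rho = -0.53) and PLA2G4A (r = -0.41, rho = -0.40). Without the 2 libraries farthest from the LPIN1 median, r was 0.60 for GPD1, 0.65 for PLA2G6 and -0.36 for PLPP1. Without castrated male 1, r was 0.52 for GPD1 and PLA2G6, 0.35 for DGAT1, 0.28 for CHPT1, 0.27 for AGPAT1 and 0.45 for CDS2. At the low end it was then -0.52 for PLD2, -0.42 for PLPP1, -0.43 for PLD4 and -0.34 for PLA2G4A.

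GPD1, the member of highest FPKM, was used as a further reference after these values had been seen. With GPD1, 66 of 21586 loci passed (0.306%), and 2 of 44 members, DGAT1 above and PLA2G4A below 0. An unadjusted p under 0.05 was reached by 11 of 44 members (25.0%, against 19.7% of all loci). DGAT1 had r = 0.84 and rho = 0.83 (permutation p = 2e-05, adjusted p = 0.0402). DGAT1 ran from 57.3 CPM (median 79.1 CPM) to 107 CPM in females and from 42.6 CPM (median 78.4 CPM) to 98.7 CPM in castrated males. Castrated male 1 was lowest for both genes and female 7 highest for both.

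PLA2G4A, the cytosolic phospholipase that releases arachidonate from membranes, had r = -0.72 and rho = -0.78 (adjusted p = 0.0457). It ran from 7.21 CPM (median 10.9 CPM) to 17.8 CPM in females and from 8.74 CPM (median 12.5 CPM) to 16.9 CPM in castrated males, with female 7 lowest. By rho, 13 loci passed, among them 1 member, DGAT1. Neither call passed without the libraries at the low end of GPD1. Without castrated male 1, r was 0.79 for DGAT1 (adjusted p = 0.095) and -0.71 for PLA2G4A (adjusted p = 0.119). Without castrated male 1 and the library labelled castrated male 10, r was 0.73 and -0.74 (adjusted p = 0.327 and 0.286), and 0 loci passed.

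The correlations with GPD1 were also taken on FPKM, chosen after the data were seen because counts and FPKM of DGAT1 differed. DGAT1 then had r = 0.88 with GPD1 (adjusted p = 0.036), while PLA2G4A stood at -0.56 (adjusted p = 0.141), no longer past the threshold. AGPAT1 (r = 0.70, rho = 0.59), CHPT1 (r = 0.67, rho = 0.43), PLA2G6 (r = 0.66, rho = 0.61) and LPIN1 (r = 0.60, rho = 0.58) followed DGAT1 on counts and did not pass. Without castrated male 1, r was 0.55 for AGPAT1, 0.38 for CHPT1, 0.62 for PLA2G6 and 0.52 for LPIN1. PLPP1 (r = -0.61, rho = -0.41), PLD2 (r = -0.53, rho = -0.42) and PLD4 (r = -0.50, rho = -0.38) stood at the other end. These r became -0.35, -0.44 and -0.28 without castrated male 1. The summed fat cell markers were lowest in castrated male 1 and highest in female 7, as was GPD1, and the part of fat cell content in these correlations was not tested.

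**Figure D4:**
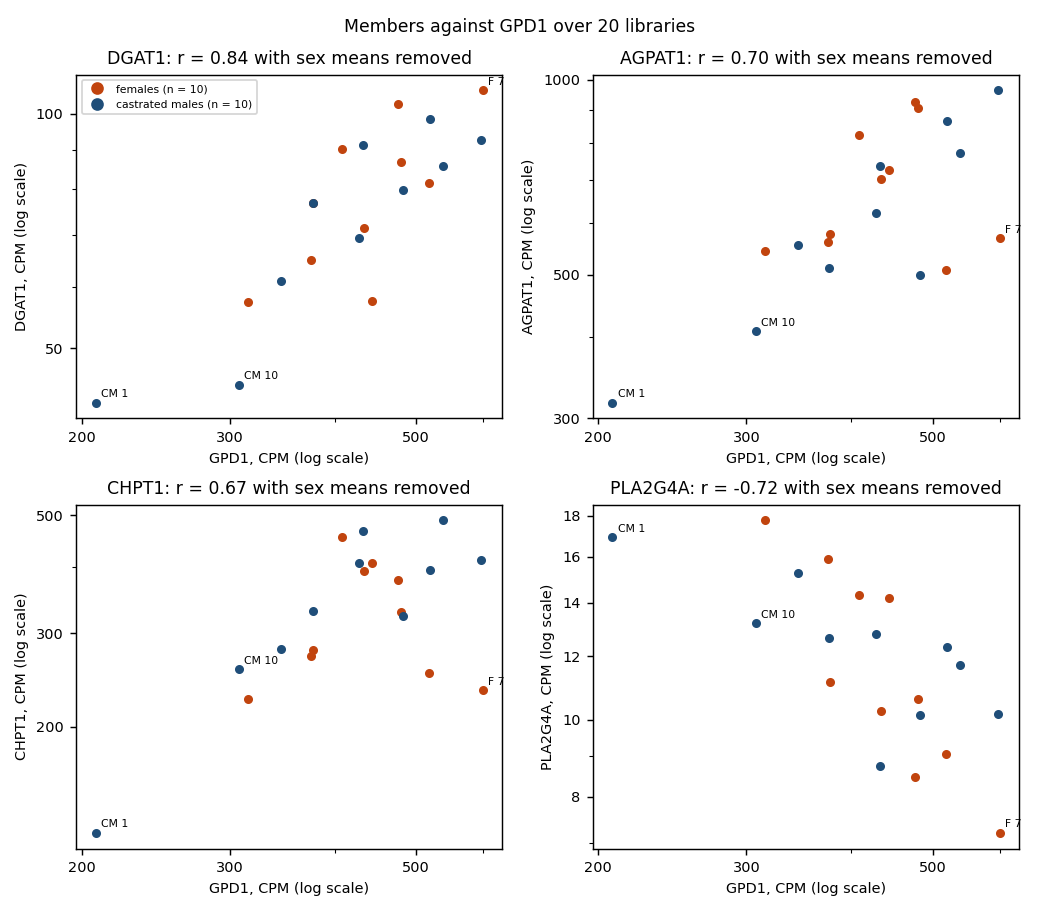
CPM of DGAT1, AGPAT1, CHPT1 and PLA2G4A (vertical log axes) against CPM of GPD1 (horizontal log axis) in 10 females (orange) and 10 castrated males (blue), 1 point a library. DGAT1 rises with GPD1 at r = 0.84 and PLA2G4A falls at r = -0.72 with sex means removed; castrated male 1 (CM 1) is at the low end of GPD1 and female 7 (F 7) at the high end.

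Isoforms were read from the deposited isoform FPKM, which tied 192 isoforms to 47 of the 48 loci. At 38 loci there were 2 or more isoforms, and at 18 of these the leading one had no nearest reference transcript. Over females and castrated males 0 of 119 tested isoforms of these loci passed, against 20 of 33316 in all (0.06%). An unadjusted p under 0.05 was reached by 2, against 2.34% of all isoforms. These were TCONS_00046089 of PLPP2, a lipid phosphate phosphatase, at 0.632 ± 0.387 FPKM in females and 0.221 ± 0.333 FPKM in castrated males (SD, n = 10 each), and the leading isoform of LPCAT2, TCONS_00073278, at 7.20 ± 1.25 and 9.35 ± 2.48 FPKM. The log2 differences were 1.45 ± 0.60 and -0.35 ± 0.15 (SE, adjusted p near 1 for each by limma). Without the libraries numbered 10 the LPCAT2 isoform stood at -0.31, and the PLPP2 isoform did not enter the fit.

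The abundant enzymes differed in how steady their isoform mix was. CHPT1 kept 81.0% of its FPKM in 1 reference isoform of 10, between 78.6% and 82.9% in every library, although its locus FPKM ran from 84.8 to 355. GPD1 had 93.5% in 1 reference isoform, from 90.5% to 96.6%. AGPAT1 was split between a reference isoform with 55.2% (42.8% to 67.3%) and an isoform without a reference with 33.9% (24.8% to 48.7%).

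LPIN1 varied more. An isoform without a nearest reference, TCONS_00057261, held 49.1% of the locus on average, from 26.0% in the library labelled castrated male 10 to 67.4% in female 6. A further one without a reference, TCONS_00057263, held 31.9%, from 7.40% in female 6 to 53.5% in the library labelled castrated male 10. The extremes of both shares thus fell in the same pair of libraries, at opposite ends. At PLIN4 the leading isoforms held 46.3% and 25.8%, both without a reference, and its reference isoform 0.363%.

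At PLD3 the leading isoform, TCONS_00073701, held 6.13% in female 7 and 74.8% in castrated male 1. DGAT1 had 61.3% in a reference isoform, from 49.5% in castrated male 5 to 77.7% in female 6. Isoform FPKM are estimates whose counts were not used here, so the depth behind a share is unknown.

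**Figure D5:**
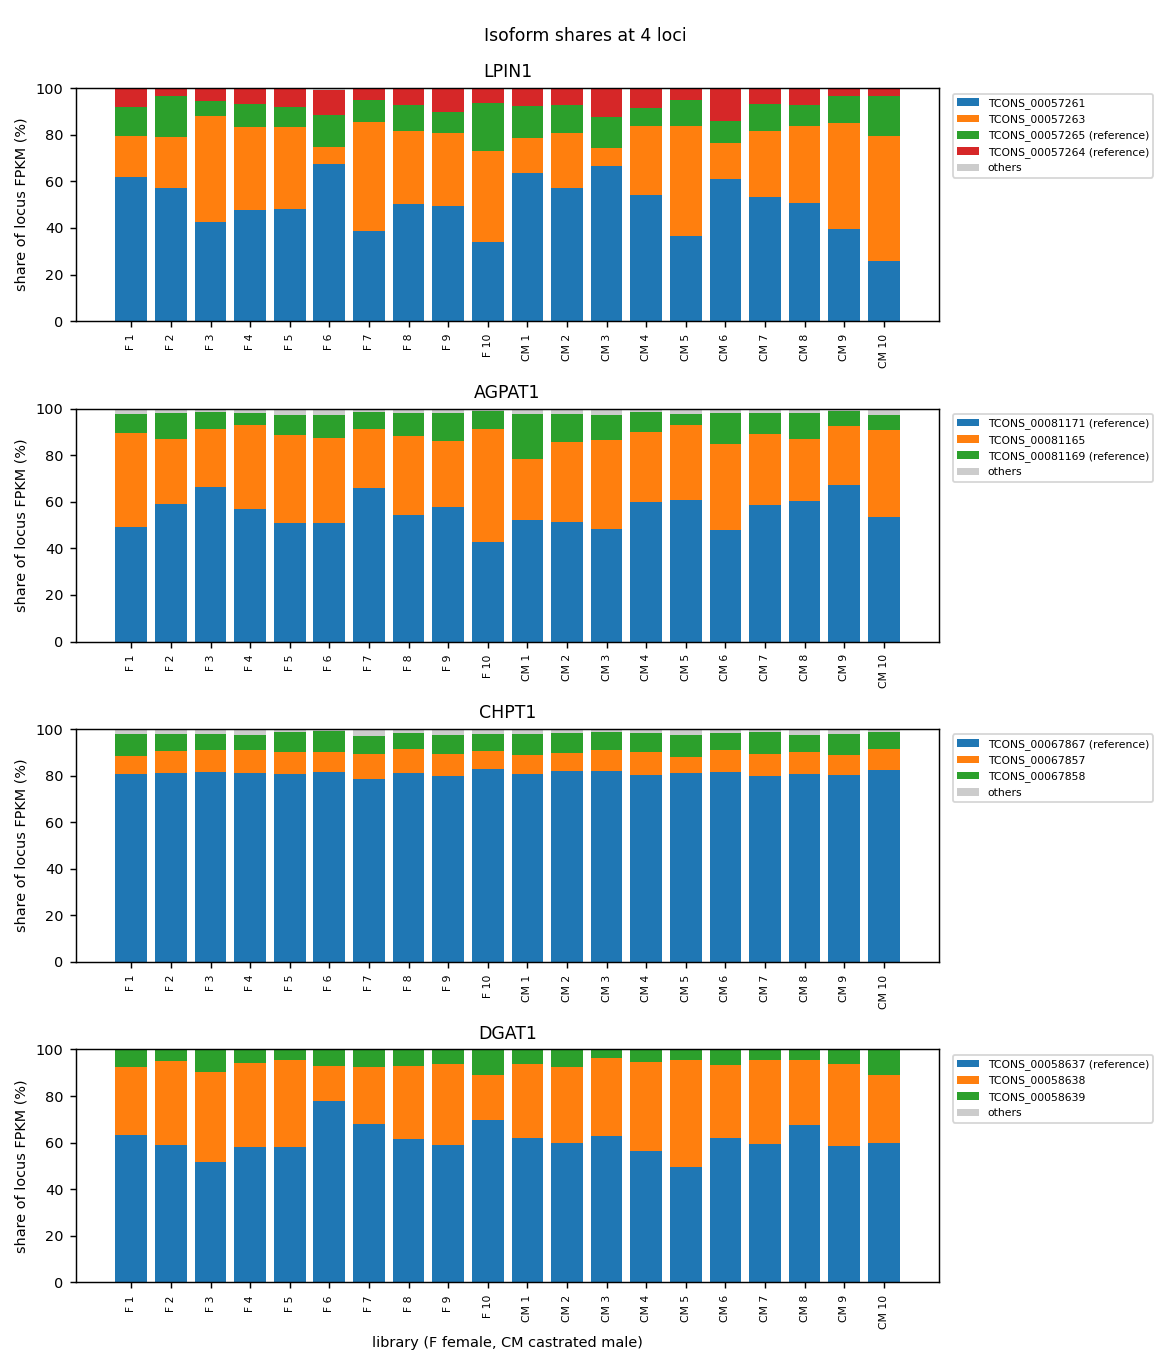
Share of the locus FPKM (vertical axis, percent) taken by each isoform of LPIN1, AGPAT1, CHPT1 and DGAT1 in the 20 libraries; colours are isoforms with a mean share of at least 5% and grey is the rest. CHPT1 stays between 78.6% and 82.9% in its leading isoform, while the leading LPIN1 isoform ranges from 26.0% to 67.4%.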

How the data were processed

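Messenger RNA of backfat from 20 pigs was sequenced as paired reads of 100 bp, 1 library per animal, per the labels' protocols. Cufflinks 2.1.1, TopHat2 2.0.8, Bowtie2 2.1.0.0 and DESeq2 are listed in the submitters' processing notes, with Sscrofa10.2 as the build. What counted the reads, with which annotation release and strand setting, is not given in the sources used here, so overlapping and antisense genes cannot be told apart. The authors deposited raw counts per locus and FPKM per locus and per isoform. No batch was labelled.

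Loci were named through Ensembl identifiers matched to pig symbols. Members, lists and tests were chosen with earlier results of these data known. Counts that passed filterByExpr were tested with edgeR 4.0.16 (TMM, quasi-likelihood, Benjamini-Hochberg adjustment over all loci, threshold 0.05) in R 4.3.3. All 20 libraries entered each fit, first with sex alone, then with age in units of 10 days and sex, then with their interaction. CPM are TMM-scaled, and log2 CPM for correlations used a prior count of 2. Correlations used 100000 permutations within sex, so 1e-05 is the smallest p they can give. Isoform FPKM of at least 0.5 in at least 10 libraries were tested with limma 3.58.1 on log2(FPKM + 0.1), which understates changes of low isoforms. An isoform was tied to a locus through the deposited tables, where isoform sums matched the locus FPKM within 0.05%.

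Alternatives were DESeq2 1.42.0, limma-voom with quality weights, limma on log2(FPKM + 0.1), upper-quartile factors, no filter on low counts, age as a covariate, other prior counts and pseudocounts, and leaving out libraries. Named members were the 10 of highest FPKM, the 10 of largest residual SD, the 5 of smallest p in each direction of each comparison, the 6 of highest and 4 of lowest correlation, and every member of a role with 1 to 3 loci. The steadiest loci, the lowest one, those highest in castrated male 6 and the isoforms were named after their values were seen. The edgeR fits, the isoform fit and the correlation were run on simulated data, with outcomes not given here. The DESeq2, limma-voom and locus FPKM alternatives were not. Tables were made with Python 3.11.15, numpy 2.4.6, scipy 1.17.1 and pandas 2.3.3, and figures with matplotlib 3.10.9. Animals are separate, so p-values measure the spread between animals.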

Additional observations from a re-analysis of the deposited data

Results flagged for a closer look

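For each of 35 named members and each sex, 70 groups of 10 libraries in all, the highest or lowest library was set against its nearest neighbour on the log2 CPM scale. A library is listed where that gap, divided by the range of the group, exceeded the 95% critical value of Dixon's test for 10 samples. For groups not chosen by their values, chance lists about 1 in 20. Many of these members were named for their spread or their small p, so the 9 listed, at 8 members, cannot be read against that rate.

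Castrated male 1 accounted for 3 of the 9. It stood at 17.7 CPM for CDS1, with castrated male 6 next at 4.21 CPM, and at 118 CPM for PLPP1, with castrated male 3 next at 62.3 CPM. It was lowest for CHPT1 at 126 CPM, below the library labelled castrated male 10 at 256 CPM. Castrated male 3 was high for PLIN5 at 35.3 CPM, against 14.4 CPM in castrated male 8, and low for CHKA at 62.6 CPM, against 75.3 CPM in castrated male 8. In FPKM castrated male 3 was again highest for PLIN5, at 22.0, but stood at the mean of 22.4 for CHKA.

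PLD3 was low in female 7 at 66.9 CPM, below female 3 at 89.4 CPM, and in the library labelled castrated male 10 at 65.6 CPM, below castrated male 9 at 91.1 CPM. In FPKM female 7 was again lowest, at 57.5, but the library labelled castrated male 10 stood at 87.4, near the mean of 89.1. PCYT1A was high in the library labelled female 10 at 135 CPM, above female 1 at 115 CPM, and so was GPD2, at 52.7 CPM above female 6 at 32.7 CPM. In FPKM that library stood at 19.2 for PCYT1A, at the mean of 19.2, and was highest for GPD2, at 6.54.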

How the results depend on the processing

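No member was called for sex, age or their interaction under any alternative run. Of 935 recomputed values of named members in these comparisons, 2 changed direction, both of the GPD1 sex difference, from 0.063 to -0.0302 with age as a covariate and to -0.0113 without castrated male 1, the lowest of -0.0113 to 0.130 on leaving out 1 library. Members not named were not followed in this way. Over all loci the calls for sex, 0 by edgeR, were 6 by DESeq2, 9 by limma-voom and 11 by limma on FPKM. They were 18 without both libraries numbered 10 and ran from 0 to 13 on leaving out 1 library, with 13 without the library labelled female 10 and 7 without the library labelled castrated male 10. For age, 0 became 5 by DESeq2 and 1 by limma on FPKM, and 0 to 1 on leaving out 1 library. For the difference of slopes, 0 became 3 by DESeq2 and 0 to 1 on leaving out 1 library. Isoforms called fell from 20 to 3 without the libraries numbered 10. Members correlated with GPD1, 2 at first, were 0 without its 2 farthest libraries, 0 without castrated male 1 and 1 on log2 FPKM. Loci correlated with GPD1, 66 at first, were 136 with sex means kept, 216 with upper-quartile factors, 0 without the 2 farthest libraries, 0 without castrated male 1 and 13 on log2 FPKM. The GPD1 reference and its alternatives were chosen after seeing the data. The cause of these changes was not tested.

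No paired analysis was possible because the replicate numbers follow sample order and the labels tie no female to a castrated male. Depth limits the low loci most, such as PLA2G3, with 10 to 57 counts a library.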

Other observations

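Summed by role over the symbols with a locus of their own, the per-length levels of some of the roles were as follows. Glycerol 3-phosphate supply summed to 348 ± 73.9 FPKM (SD, n = 20), lysophosphatidate acyltransferases to 339 ± 81.6 FPKM, and the choline and ethanolamine branches to 289 ± 66.7 FPKM. Lysophospholipid acyltransferases, which remodel membrane acyl chains, summed to 86.1 ± 8.47 FPKM, phospholipases A2 to 44.3 ± 14.2 FPKM, and the phosphatidylserine enzymes to 29.8 ± 2.64 FPKM. Glycerol 3-phosphate supply ran from 167 FPKM in castrated male 1 to 477 FPKM in castrated male 4. The sums cover 3 of 3 listed symbols for glycerol 3-phosphate supply and 3 of 5 for lysophosphatidate acyltransferases. They cover 4 of 7 for the choline and ethanolamine branches and 7 of 9 for lysophospholipid acyltransferases. For phospholipases A2 they cover 6 of 19 and for phosphatidylserine 2 of 3, so the sums do not rank the roles.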
